A study of Homo sapiens with 12 samples.

Results

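Intermediate filaments were followed in human embryonic stem cells through 8 genes: the simple keratins KRT7, KRT8, KRT18 and KRT19, the cytoplasmic filament genes VIM and NES, and the nuclear lamins LMNA and LMNB1. They were taken by name, as the entries of the deposited table that carry these symbols, and chosen with earlier results of these data known. They are 8 of 35940 symbols in the table, and all 8 were among the 17047 symbols that passed the filter on low counts. Each of the 8 symbols stands on 1 Ensembl identifier.

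All cells were of the embryonic stem cell line ESI017 with an mCitrine reporter on SOX2, a transcription factor of pluripotent and neural cells. They grew as micropatterned colonies, which are confined to printed adhesive areas, in the serum-free medium N2B27 for 3 days. The SOX2-negative and the SOX2-positive cells were sorted by the reporter from colonies given FGF8 at 200 ng/ml with WNT3A at 100, 300 or 1000 ng/ml, and the control colonies had N2B27 alone, with no gate stated in their label. There were 2 libraries of each gate at 100 and at 1000 ng/ml, 1 library of each gate at 300 ng/ml and 2 control libraries, 12 in all, and every one comes from a single cell line. The repeats are named biological repeats in the series description, so the p-values measure the spread between repeats of this line.

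Intermediate filaments are rope-like polymers that give cells and nuclei mechanical strength. Keratins are built only as pairs of a basic type II chain, here KRT7 or KRT8, with an acidic type I chain, here KRT18 or KRT19; KRT8 and KRT18 are the earliest keratins of the embryo and mark simple epithelia. VIM, which encodes vimentin, is the filament of mesenchymal cells, NES, which encodes nestin, is known for neural progenitors, and the lamins line the inner nuclear membrane, with LMNB1 in nearly every cell and LMNA rising as cells differentiate.

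The members form 3 pairs of close relatives, KRT7 with KRT8, KRT18 with KRT19 and LMNA with LMNB1. The stretches of the type I keratins below were chosen because they hold the longest run of bases that KRT18 and KRT19 share, near the start of the central rod domain, and so show how far reads of such relatives can be told apart. Each is 84 bases of the GENCODE 29 transcript on GRCh38, from coding base 232 to 315, written 5′ to 3′ on the coding strand, and capitals mark the bases that differ from the partner.
KRT18: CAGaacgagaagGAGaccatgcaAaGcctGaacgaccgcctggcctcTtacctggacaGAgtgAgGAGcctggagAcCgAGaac
KRT19: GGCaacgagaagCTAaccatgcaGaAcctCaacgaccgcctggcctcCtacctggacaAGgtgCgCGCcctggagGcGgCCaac

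KRT18 and KRT19 matched at 64 of these 84 bases. The longest unbroken run shared was 41 bases between KRT7 and KRT8, 17 between KRT18 and KRT19 and 14 between LMNA and LMNB1. Over the whole transcript, 16 of the 1724 words of 31 bases in KRT7 also occur in KRT8, which is 0.928%, and the other pairs share none. Pseudogene copies come closer, since 49% of such words in KRT8 and 60.4% of those in KRT18 recur in transcripts of annotated pseudogenes, against 9.93% in KRT19. The pseudogene entries of the table nevertheless held counts equal to only 0.0908% to 3.06% of those of KRT8, 0.0535% to 1.12% of those of KRT18 and at most 0.0699% of those of KRT19 in any library.

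Of the 4 keratin genes, 3 lie on chromosome 12 (GRCh38). KRT7 (ENSG00000135480) spans 52232520 to 52252186 on the plus strand, KRT8 (ENSG00000170421) 52897187 to 52949954 on the minus strand and KRT18 (ENSG00000111057) 52948871 to 52952901 on the plus strand. The annotated KRT8 and KRT18 genes overlap by 1084 bases, of which 135 are exonic in both, and no strand setting of the counting is given in the sources used here, so reads from those bases could belong to either gene. KRT19 (ENSG00000171345) lies on chromosome 17 from 41523617 to 41528308, VIM (ENSG00000026025) on chromosome 10 from 17228259 to 17237593 and LMNB1 (ENSG00000113368) on chromosome 5 from 126776623 to 126837020. LMNA (ENSG00000160789, 156082573 to 156140089) and NES (ENSG00000132688, 156668763 to 156677397) are on chromosome 1.

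Libraries held 16474856 to 28079048 estimated counts. Values are CPM, counts divided by the library size after TMM scaling, edgeR's adjustment for composition. SOX2, the gene of the gate, stood at 1.85 to 5.99 CPM in the SOX2-negative libraries at 100 and 1000 ng/ml, 418 to 467 CPM in the SOX2-positive libraries and 652 and 676 CPM in the controls, which checks the sort. The summed CPM of 5 markers of definitive endoderm, a sum that leaves out a further listed marker, stood at 648 to 1250 CPM in SOX2-negative, 7.3 to 26.9 CPM in SOX2-positive and 3.91 to 7.73 CPM in control libraries, with SOX17 at 0 in the controls. The 6 markers of primitive streak and mesoderm summed to 208 to 617, 14.8 to 102 and 21.5 to 28.6 CPM in the same order of groups. The 6 of surface ectoderm and amnion summed to 163 to 224, 11.3 to 55.3 and 216 to 297 CPM, with TP63 at 0 in the controls. Its members differed in opposite directions between the gates, since GATA3 and ISL1 were higher in SOX2-negative cells (log2 fold change 4.91 and 6.21, adjusted p = 1.1e-06 and 1.3e-06, edgeR) and TFAP2A and GABRP lower (-1.87 and -2.86, adjusted p = 0.008 and 0.046). GABRP lay near the floor, with overlapping ranges of 0 to 0.33 CPM in SOX2-negative and 0.289 to 0.942 CPM in SOX2-positive libraries. GATA3 made up most of this list's sum in the SOX2-negative libraries, at 140 to 180 CPM, and TFAP2A in the controls, at 155 to 211 CPM. Those of pluripotent cells, 7 of 7, summed to 2050 to 3240, 4540 to 5350 and 5050 to 5190 CPM, and the 6 neural markers to 6.72 to 14.0, 23.8 to 27.3 and 120 to 145 CPM, with SOX1 at 0 in SOX2-negative and control libraries. The summed levels of all 5 lists thus differed between the gates beside the filament genes, and their part in those was not tested. Single markers did not all differ, since LIN28A (-0.02, adjusted p = 0.93), TDGF1 (-0.05, 0.87), FABP7 (-0.51, 0.13), LHX2 (-1.63, 0.26) and TBXT (1.53, 0.16) did not pass between the gates by edgeR. In such bulk samples, fewer cells of a type and less RNA per cell cannot be told apart. The SOX2-negative library of repeat 2 at 100 ng/ml stood apart, with the lowest TMM factor (0.899) and the highest KRT8, KRT18 and KRT19 levels, and results are given with and without it where it moves them.

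In the SOX2-negative cells KRT8, KRT18, KRT19 and LMNA rose and KRT7 fell relative to the SOX2-positive cells, while VIM, NES and LMNB1 did not pass the test. So 5 of the 8 genes were called, 4 higher and 1 lower, by edgeR's quasi-likelihood test on the mean of 100 and 1000 ng/ml with Benjamini-Hochberg adjustment over all symbols and a threshold of 0.05. In this comparison 24% of all symbols tested were called, 12.9% higher and 11.1% lower. The median log2 fold change of the 8 genes was 0.79, beside 0.01 over all symbols. For the called genes the values of the gates did not overlap, as given below. How many of all symbols separate the gates in this way is not given, so the separations are not read as particular to these genes. The count of 5 was the same with each library left out in turn.

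KRT7, a type II keratin of glandular and transitional epithelia, was nearly absent from the SOX2-negative cells. KRT7 stood at 0.12 and 0.171 CPM at 100 ng/ml, 0.482 CPM at 300 ng/ml and 0.16 and 0 CPM at 1000 ng/ml in the SOX2-negative libraries. The SOX2-positive libraries had 17.5 and 20 CPM of KRT7 at 100 ng/ml, 7.51 CPM at 300 ng/ml and 6.66 and 18.6 CPM at 1000 ng/ml, and the controls 18.2 and 16.4 CPM. Every SOX2-negative library lay below every other library. The log2 fold change between the gates was -7.15 ± 0.54 (SE, adjusted p = 6.8e-06, edgeR). With 300 ng/ml in the mean it was -6.08 (adjusted p = 1.1e-05), and it was -9.01 without repeat 1 of the SOX2-negative cells at 1000 ng/ml, since few counts carry it.

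The counts behind KRT7 were 9 summed over the 4 SOX2-negative libraries at 100 and 1000 ng/ml, against 1363 in the 4 SOX2-positive libraries. Relative to library size KRT7 was therefore 151-fold lower in SOX2-negative cells, with an exact 95% interval of 79.3 to 331 that covers counting error only. With the 300 ng/ml libraries the counts were 18 against 1521, or 0.177 against 14.6 CPM, and the difference was 82.3-fold (51.9 to 139). The library with 0 counts allows up to 3 counts, which is 0.124 CPM. In percent of the SOX2-positive level, the SOX2-negative cells had 0.663% of KRT7 (0.302% to 1.26%) and 0.872% of SOX2 itself, the gene of the sort reporter. The order of these shares turned when the 300 ng/ml libraries were included, with 1.21% for KRT7 (0.718% to 1.93%) and 0.936% for SOX2. Whether these counts come from cells of the other gate was not tested.

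KRT8, the type II partner of KRT18, moved the other way. KRT8 stood at 3263 and 6400 CPM at 100 ng/ml, 3145 CPM at 300 ng/ml and 2988 and 2272 CPM at 1000 ng/ml in the SOX2-negative libraries. In the SOX2-positive libraries KRT8 had 391 and 301 CPM, 451 CPM, and 506.5 and 355 CPM at the same doses, and the controls had 369 and 441 CPM. The lowest SOX2-negative library was above the highest of all others. KRT8 averaged 3731 ± 1828 CPM in SOX2-negative and 388 ± 87.1 CPM in SOX2-positive cells (SD, n = 4 each), a 9.24-fold difference (log2 fold change 3.21 ± 0.24 SE, adjusted p = 6.6e-06, edgeR; 2.92 without the SOX2-negative library of repeat 2 at 100 ng/ml).

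KRT18, the type I chain that pairs with KRT8, had 1760 and 3037 CPM at 100 ng/ml, 1687 CPM at 300 ng/ml and 1592 and 1062 CPM at 1000 ng/ml in the SOX2-negative libraries. The SOX2-positive libraries held 280 and 197 CPM, 335 CPM, and 370.2 and 234 CPM of KRT18 at these doses, and the controls 196.5 and 220.3 CPM. Again the groups did not overlap. The log2 fold change was 2.73 ± 0.24 (SE, adjusted p = 2.1e-05, edgeR), which is 6.65-fold, and it was 2.51 without repeat 2 at 100 ng/ml of the SOX2-negative cells.

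KRT19, a type I keratin with a very short tail, found in many simple epithelia, had 555 and 1458 CPM at 100 ng/ml, 458 CPM at 300 ng/ml and 421 and 569.8 CPM at 1000 ng/ml in the SOX2-negative libraries. Its SOX2-positive values were closely grouped, from 131 to 161 CPM over the 5 libraries, and the controls had 158 and 176 CPM. All SOX2-negative libraries were above these. KRT19 averaged 751 ± 476 CPM in SOX2-negative and 141 ± 13.7 CPM in SOX2-positive cells (SD, n = 4 each), with a log2 fold change of 2.32 ± 0.27 (SE, adjusted p = 0.00013, edgeR) that was 1.89 without the library of repeat 2 at 100 ng/ml, where KRT19 was highest.

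**Figure D1:**
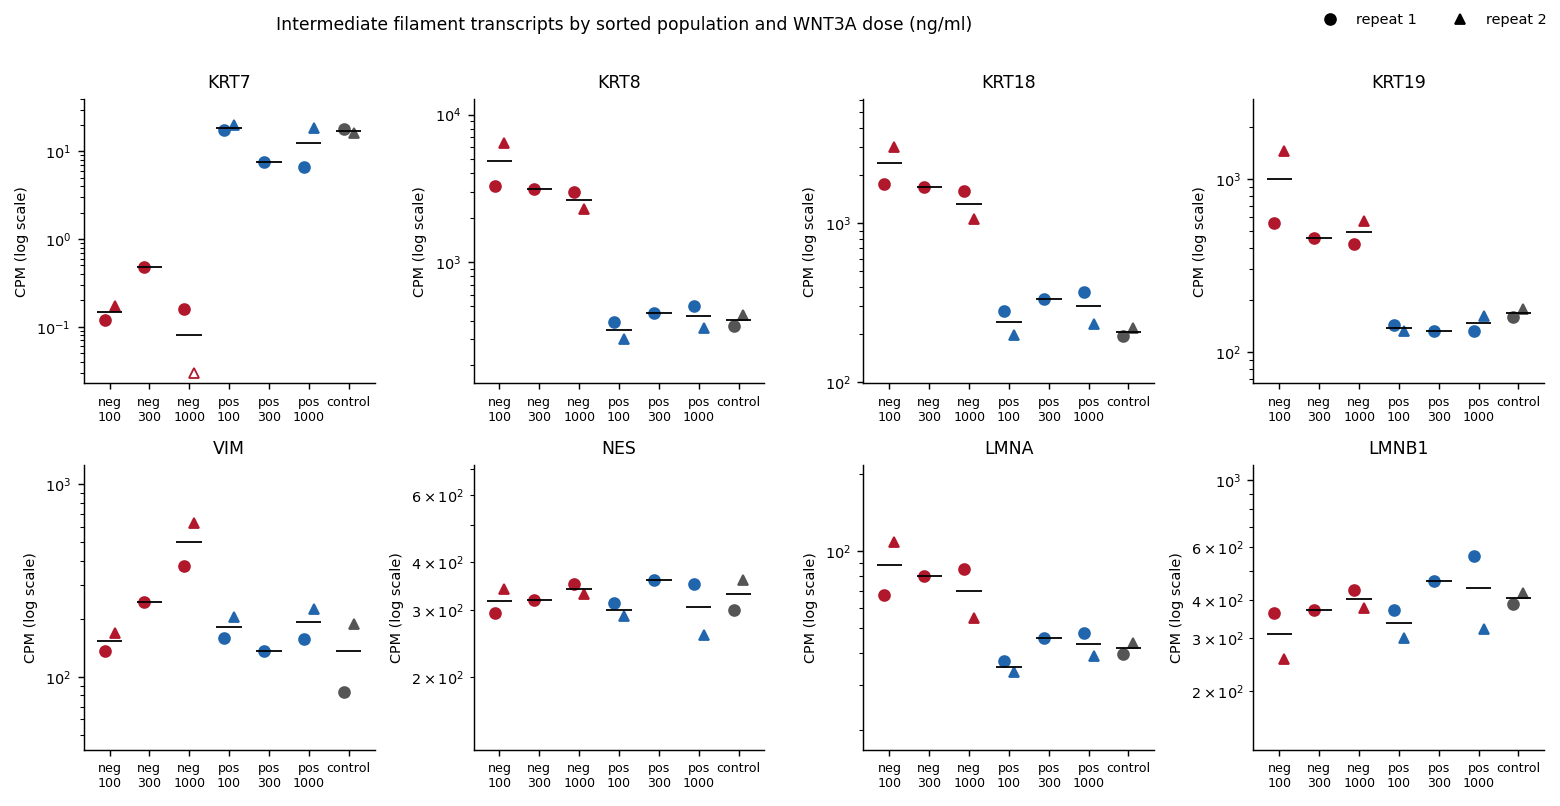
CPM of each gene (log axis) in the 12 libraries, with SOX2-negative (neg), SOX2-positive (pos) and control libraries from left to right and WNT3A in ng/ml below; circles are repeat 1, triangles repeat 2, lines the group mean, and the open triangle a library with 0 counts drawn at 0.03 CPM. KRT8, KRT18, KRT19 and LMNA lie higher and KRT7 lower in all 5 SOX2-negative libraries, while NES and LMNB1 overlap between the gates. The share of all symbols that separate the gates like this is not given.

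VIM did not pass the test between the gates when both doses were averaged. VIM stood at 136 and 169 CPM at 100 ng/ml, 243 CPM at 300 ng/ml and 376 and 628 CPM at 1000 ng/ml in the SOX2-negative libraries. The SOX2-positive libraries had 158 and 203 CPM, 136 CPM, and 157 and 225 CPM, and the controls 83.7 and 188 CPM. The SOX2-negative libraries at 100 ng/ml were within the SOX2-positive range, and those at 300 and 1000 ng/ml were above every other library. The log2 fold change was 0.57 ± 0.27 (SE, adjusted p = 0.15, edgeR), and with the repeat as a block it was 0.57 with an adjusted p of 0.034.

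Within each dose and repeat, the log2 difference of VIM between SOX2-negative and SOX2-positive cells was -0.22 and -0.27 at 100 ng/ml, 0.84 at 300 ng/ml and 1.26 and 1.48 at 1000 ng/ml. The sign thus differed between the lowest dose and the others in both repeats. NES showed no such order. NES stood at 294 to 351 CPM over the 5 SOX2-negative libraries, 258 to 359.5 CPM over the SOX2-positive libraries and 300.6 and 359 CPM in the controls, and these ranges overlapped (log2 fold change between the gates 0.12 ± 0.15 SE, adjusted p = 0.59, edgeR). Its coefficient of variation was 7.53% over the 4 SOX2-negative libraries at 100 and 1000 ng/ml, the smallest of the 8 genes there.

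LMNA, which encodes lamins A and C, had 67.5 and 108 CPM at 100 ng/ml, 80.1 CPM at 300 ng/ml and 84.9 and 54.9 CPM at 1000 ng/ml in the SOX2-negative libraries. Its values in the SOX2-positive libraries were 37.2 and 33.7 CPM, 45.6 CPM, and 48.0 and 39.1 CPM, and the controls had 39.7 and 43.7 CPM. Every SOX2-negative library was higher than every other library. The difference was 2.00-fold, with a log2 fold change of 1.00 ± 0.20 (SE, adjusted p = 0.0043, edgeR) and of 0.80 without the SOX2-negative library of repeat 2 at 100 ng/ml.

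LMNB1, a B-type lamin that stays attached to the membrane by a lipid anchor, had 256 to 432 CPM over the 5 SOX2-negative libraries, 299.7 to 560.5 CPM over the SOX2-positive libraries and 388 and 422 CPM in the controls. The ranges overlapped, and the log2 fold change between the gates was -0.12 ± 0.20 (SE, adjusted p = 0.69, edgeR). The ratio of the lamin genes is given below.

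Against the control colonies the SOX2-negative cells gave calls for the same 5 genes in the same directions. In this comparison 22.5% of all symbols were called, 12.4% higher and 10.1% lower, and it shares the SOX2-negative libraries with the comparison between gates. The log2 fold change of KRT8 was 3.14 ± 0.32 (SE, adjusted p = 6.5e-05, edgeR), that of KRT18 3.10 ± 0.33 (adjusted p = 8.5e-05) and that of KRT19 2.08 ± 0.35 (adjusted p = 0.0016). KRT7 fell by 7.31 ± 0.56 on the log2 scale (SE, adjusted p = 1.2e-05, edgeR). LMNA was higher by 0.91 ± 0.25 (SE, adjusted p = 0.025, edgeR), a call that was lost without control repeat 1 (adjusted p = 0.18), without control repeat 2 (0.13), without repeat 1 of the SOX2-negative cells at 1000 ng/ml (0.069) and when only the compared groups were fitted (0.066). Without the SOX2-negative library of repeat 2 at 100 ng/ml the values against control were 2.85 for KRT8, 2.87 for KRT18, 1.65 for KRT19, 0.71 for LMNA and -7.47 for KRT7, and all 5 passed (adjusted p = 1.3e-05, 4.4e-05, 9.4e-05, 0.025 and 4.1e-05, edgeR).

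VIM was just outside the threshold against control, with a log2 fold change of 1.03 ± 0.34 (SE, adjusted p = 0.053, edgeR). With the repeat as a block it was 1.09 with an adjusted p of 0.0052, and DESeq2 gave an adjusted p of 0.0077. With single libraries left out in turn the log2 fold change ran from 0.555 to 1.73, the highest without control repeat 2, the higher of the controls. Whether VIM passed depended on the library left out, and each of these fits leaves 1 library in a group. NES (adjusted p = 1) and LMNB1 (-0.20 ± 0.24 SE, adjusted p = 0.61) did not pass, by edgeR. The median of the 8 genes was 0.97, beside 0.03 over all symbols.

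None of the 8 genes passed the test between the SOX2-positive cells and control, where 7.81% of all symbols were called, 4.65% higher and 3.17% lower. No member had an unadjusted p under 0.05 in edgeR, and DESeq2 called 0 as well. The log2 fold changes ran from -0.24 ± 0.31 for KRT19 to 0.45 ± 0.33 for VIM (SE), with adjusted p of 0.49 to 0.93 by edgeR. KRT8 averaged 388 ± 87.1 CPM in SOX2-positive cells (SD, n = 4) and 405 ± 51.0 CPM in control colonies (SD, n = 2), and KRT7 15.7 ± 6.11 and 17.3 ± 1.24 CPM. The SEs of 0.18 to 0.42 leave room for differences of that size, so equal levels are not shown.

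**Figure D2:**
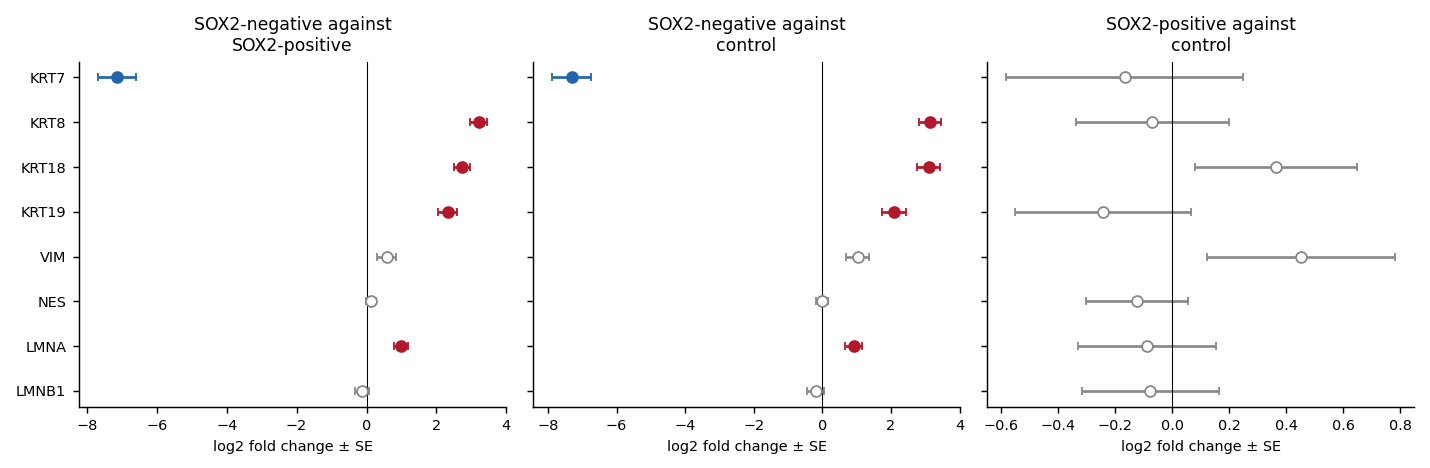
Log2 fold change ± SE of each gene by edgeR in 3 comparisons, left to right, with filled points where the adjusted p is under 0.05 (red higher, blue lower) and open grey points elsewhere; the axis of the right panel is narrower. KRT7 lies near -7 and KRT8, KRT18 and KRT19 between 2 and 4 wherever SOX2-negative cells are compared, and all points of SOX2-positive cells against control are open.

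The dose of WNT3A was compared within each gate at 1000 against 100 ng/ml. No symbol of 17047 was called by edgeR in either gate or in the difference between the gates (0%), so the adjusted test separates no gene here. In the SOX2-positive cells none of the 8 genes had an unadjusted p under 0.05, and DESeq2 called none of them. In the SOX2-negative cells 4 had one, KRT8, KRT18, KRT19 and VIM, and DESeq2 called VIM (adjusted p = 0.0011). In the difference between the gates 3 had one, KRT8, KRT18 and VIM, and DESeq2 called none. How many of all symbols lie under that unadjusted cut is not given, so these counts are not read as a dose response. The median log2 fold change of the 8 genes was 0.20 in the SOX2-positive cells, beside 0.01 over all symbols, and -0.59 in the SOX2-negative cells, beside 0.02.

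VIM showed the largest dose difference of the 8 genes in the SOX2-negative cells. It averaged 502 ± 178 CPM at 1000 ng/ml and 152.5 ± 23.1 CPM at 100 ng/ml (SD, n = 2 each), with 243 CPM in the single library at 300 ng/ml between them. The groups did not overlap, and the log2 fold change was 1.72 ± 0.39 (SE, unadjusted p = 0.001, adjusted p = 0.21, edgeR). In the repeats taken singly it was 1.47 and 1.90. The SOX2-positive cells had -0.01 and 0.15 for VIM in the same repeats, and the edgeR test of the difference between the gates gave 1.64 ± 0.53 (SE, unadjusted p = 0.011, adjusted p = 0.53).

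KRT8 averaged 2630 ± 507 CPM at 1000 ng/ml and 4831 ± 2218 CPM at 100 ng/ml in the SOX2-negative cells (SD, n = 2 each), and KRT18 1327 ± 375 and 2399 ± 903 CPM. For both, each library at 1000 ng/ml was below each at 100 ng/ml. The log2 fold change was -0.88 ± 0.31 for KRT8 (SE, unadjusted p = 0.018, adjusted p = 0.25, edgeR), -0.85 ± 0.32 for KRT18 (0.024 and 0.26) and -1.02 ± 0.36 for KRT19 (0.017 and 0.25).

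These keratin differences rested mostly on repeat 2. In repeat 1 the log2 difference between 1000 and 100 ng/ml was -0.13 for KRT8, -0.15 for KRT18 and -0.40 for KRT19, and in repeat 2 it was -1.49, -1.52 and -1.36. Without the SOX2-negative library of repeat 2 at 100 ng/ml the fitted values were -0.31 for KRT8, -0.41 for KRT18 and -0.17 for KRT19, each with an adjusted p of 1 by edgeR. Without repeat 1 at that dose they were -1.27, -1.18 and -1.54 and passed (adjusted p = 0.0049, 0.016 and 0.002), as did VIM at 1.59 (adjusted p = 0.028). Each of these fits leaves 1 library at 100 ng/ml in the gate, which is assumed to vary like the other groups, and in the second it is the library that stands apart. In the second fit 5739 of all symbols were called, so the calls of members stand among many.

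In the SOX2-positive cells KRT8 was higher at 1000 than at 100 ng/ml in both repeats, by 0.37 and 0.24 on the log2 scale, and KRT18 by 0.41 and 0.25, with fitted values of 0.32 ± 0.31 and 0.34 ± 0.32 (SE, adjusted p = 1, edgeR). LMNA had 48.0 and 39.1 CPM at 1000 ng/ml and 37.2 and 33.7 CPM at 100 ng/ml in these cells, which did not overlap, but its fitted value of 0.30 ± 0.28 (SE, adjusted p = 1, edgeR) did not pass. LMNB1 had 432 and 375.5 CPM at 1000 ng/ml and 362 and 256 CPM at 100 ng/ml in the SOX2-negative cells, again without overlap (0.39 ± 0.28 SE, adjusted p = 0.43, edgeR). By edgeR 0% of symbols were called in these comparisons. Like those of VIM, KRT8 and KRT18 in the SOX2-negative cells, these separations are of 2 against 2 libraries. The share of all symbols that separate in this way is not given, so the separations are not read as a dose effect.

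**Figure D3:**
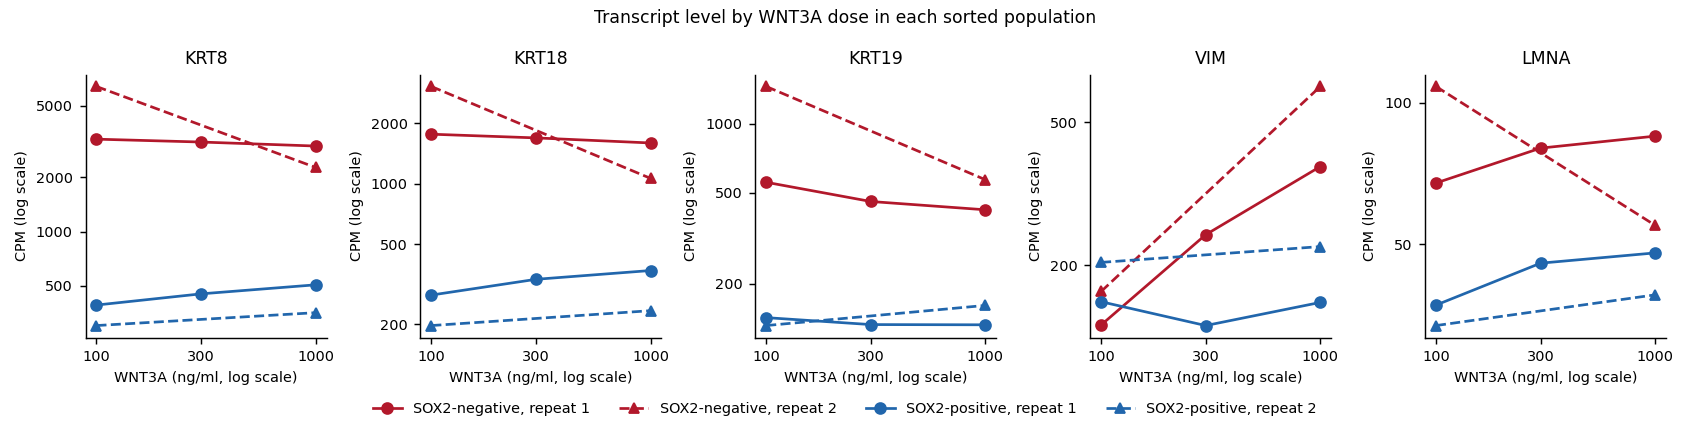
CPM (log axis) of 5 genes against the WNT3A dose in ng/ml (log axis), with a line for each gate and repeat; repeat 2 has no library at 300 ng/ml. VIM climbs with the dose in both SOX2-negative repeats, while the drop of KRT8, KRT18 and KRT19 is steep in repeat 2 and slight in repeat 1.

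Ratios within a library need no scaling between libraries, and 4 were compared between the gates at 100 and 1000 ng/ml, with 0.5 counts added to each gene. With 4 libraries in each gate the smallest two-sided p of the exact permutation test is 0.0286, and p-values were adjusted over the 4 ratios. The 4 libraries are 2 repeats at each of the 2 doses, and the test treats them as independent. The calls below did not hold with the gates of a dose and repeat as pairs (adjusted p = 0.167 for each), a design that cannot reach 0.05. They did not hold with no count added either (adjusted p = 0.0571 for KRT8/KRT18 and LMNA/LMNB1 and 0.0762 for KRT7/KRT8). There the library with 0 KRT7 counts dropped out of KRT7/KRT8. The adjustment over the 4 ratios carried this to KRT8/KRT18 and LMNA/LMNB1, whose differences stayed at 0.46 and 1.07. The log2 ratio of KRT8 to KRT18 counts was 0.99 ± 0.11 in SOX2-negative and 0.54 ± 0.08 in SOX2-positive cells (SD, n = 4 each; exact permutation p = 0.0286, adjusted 0.0381). No library of one gate reached the range of the other, and the controls had 0.91 and 1.00. The SOX2-positive libraries were also below the controls, a difference that was not tested. The exonic overlap of KRT8 with KRT18 enters this ratio in every library, and its part was not tested.

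The log2 ratio of KRT7 to KRT8, the alternative type II chains, was -15.04 ± 1.22 in SOX2-negative and -4.72 ± 1.04 in SOX2-positive cells (SD, n = 4 each; exact permutation p = 0.0286, adjusted 0.0381), and -4.34 and -4.74 in the controls. The log2 ratio of LMNA to LMNB1 was -2.20 ± 0.66 in SOX2-negative and -3.26 ± 0.22 in SOX2-positive cells (exact permutation p = 0.0286, adjusted 0.0381; SD, n = 4 each), and -3.29 and -3.27 in the controls. That of VIM to NES overlapped between the gates, at -0.27 ± 0.97 in SOX2-negative and -0.71 ± 0.44 in SOX2-positive cells (SD, n = 4 each; exact permutation p = 0.457, adjusted 0.457).

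**Figure D4:**
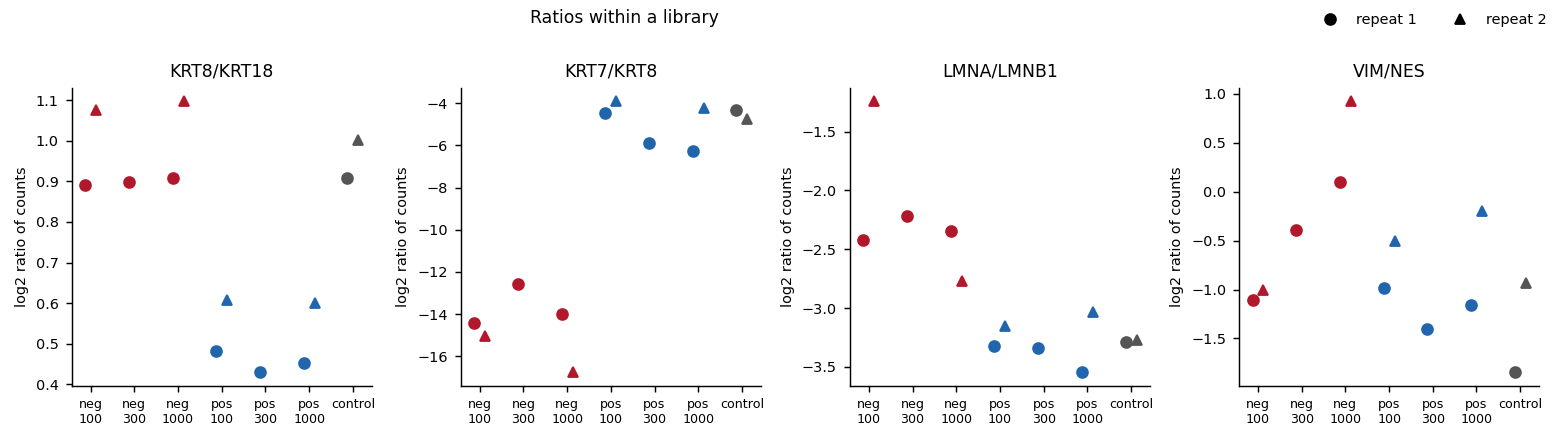
Log2 ratio of counts (0.5 added to each gene) for 4 gene pairs in the 12 libraries, with SOX2-negative (neg), SOX2-positive (pos) and control libraries from left to right and WNT3A in ng/ml below; circles are repeat 1 and triangles repeat 2. KRT8/KRT18, KRT7/KRT8 and LMNA/LMNB1 separate the gates without overlap, and VIM/NES does not.

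Compared per kilobase of transcript, which lets genes of unequal length be set side by side, the keratins made up most of the cytoplasmic filament transcripts everywhere. Of the summed CPM per kilobase of KRT7, KRT8, KRT18, KRT19, VIM and NES, the keratins held 84.5% to 97.5% in the 5 SOX2-negative libraries, 69.9% to 79.6% in the SOX2-positive libraries and 74.6% and 81.1% in the controls. The sum itself was 2554 to 6155 CPM per kilobase in SOX2-negative, 534.3 to 721.5 in SOX2-positive and 522 and 650.0 in control libraries. VIM held 1.47% to 13.2% of it in SOX2-negative cells, from the lowest share of all libraries in repeat 2 at 100 ng/ml to the highest of that gate in repeat 2 at 1000 ng/ml, and 10.9% to 20.4% in SOX2-positive cells.

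The order of the means per kilobase in SOX2-negative cells was KRT8 (1755 ± 859.8), KRT18 (1193 ± 536), KRT19 (540.4 ± 343), VIM (175 ± 121.5), LMNB1 (124 ± 25.5), NES (59.2 ± 4.46), LMNA (24.7 ± 7.24) and KRT7 (0.0642 ± 0.0446), as CPM per kilobase with SD over 4 libraries. The SD of VIM overlapped those of LMNB1 and NES, and the SDs of KRT8 and KRT18 overlapped as well. Within each single SOX2-negative library, however, KRT8 was above KRT18 and VIM above NES per kilobase. VIM was below LMNB1 in repeat 1 at 100 ng/ml (72.9 against 126) and close to it in repeat 2 (90.4 against 89.0). In SOX2-positive cells the SDs of KRT8 (183 ± 41.0) and KRT18 (173 ± 47.8) overlapped, as did those of KRT18 and LMNB1 (135 ± 41.3). Within each single SOX2-positive library KRT18 was above LMNB1. KRT8 was not above KRT18 in all of them, with 212 against 214 at 300 ng/ml. The SDs of LMNB1, KRT19 (102 ± 9.84) and VIM (99.6 ± 18.1) overlapped too, and the order of these genes changed between libraries. KRT7 (8.95 ± 3.49) and LMNA (12.4 ± 1.91) were lowest and did not differ beyond their SD, with KRT7 the higher in repeat 2 at 100 ng/ml (11.4 against 10.55). The control order began with KRT8 at 190.5 ± 24.0, LMNB1 at 141 ± 8.48 and KRT18 at 133 ± 10.8 CPM per kilobase (SD, n = 2). There the SDs of LMNB1 and KRT18 overlapped, with LMNB1 above KRT18 in each control library.

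Since keratins assemble as pairs, the summed type II level per kilobase was set against the summed type I level. The quotient was 0.98 to 1.06 in the 5 SOX2-negative libraries, 0.669 to 0.729 in the SOX2-positive libraries and 0.768 and 0.81 in the controls. The SOX2-negative values were above all others and the SOX2-positive values below all others. The quotient compares RNA, and its size rests on the length of a single annotated transcript per gene, 2126 bases for KRT8. Which transcripts the cells used was not tested, so the quotient is no measure of the balance of the chains. KRT8, KRT18 and KRT19 together took 0.389% to 0.979% of all counts in SOX2-negative, 0.0645% to 0.104% in SOX2-positive and 0.0721% and 0.0815% in control libraries.

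**Figure D5:**
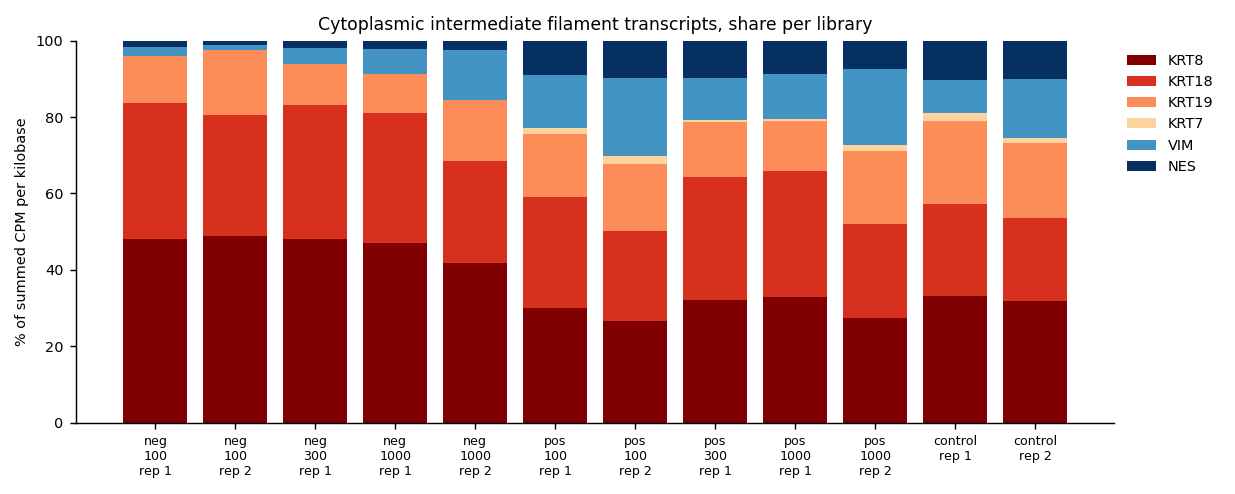
Share in percent of the summed CPM per kilobase of the 6 cytoplasmic filament genes in each library, with SOX2-negative (neg), SOX2-positive (pos) and control libraries from left to right and WNT3A in ng/ml below. Red shades are keratins, which hold at least 84.5% in SOX2-negative libraries, and blue shades VIM and NES.

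Across the 12 libraries the 8 genes fell into different profiles. KRT8 and KRT18 were the most alike pair of keratins, with a root mean square difference of 0.24 between their centred log2 CPM, against 0.59 for KRT8 and KRT19 and 4.49 for KRT8 and KRT7. Outside the 8 genes, among 10619 symbols with a mean of at least 10 CPM, the nearest to KRT8 were SLC39A4 (0.27), a zinc transporter, CA2 (0.33), a carbonic anhydrase, and GAL3ST1 (0.34), a sulfotransferase of glycolipids. GAL3ST1 (0.22) was also nearest to KRT18, before APOC1 (0.28) and GAS2L1 (0.31). KRT19 was nearest to the secreted ligand GAS6 (0.22), the epithelial transcription factor OVOL2 (0.24) and the phosphatase PTPN5 (0.24). KRT7 was nearest to the pluripotency regulator PRDM14 (0.60), HES3 (0.66) and the potassium channel subunit KCNG3 (0.74), at a distance larger than for any other of the 8 genes. VIM was nearest to KIFAP3 (0.31), KIAA1324L (0.36) and RNF169 (0.39). The distances to the nearest symbol were smaller for the other members, at 0.08 from NES to C1orf174, 0.08 from LMNA to MANF and 0.14 from LMNB1 to RNASEH1.

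Other keratins were scarce. Of 25 further keratin genes in the table only 3 passed the filter on low counts, which keeps a gene that is high in 1 group alone, so their count is no measure of the family. KRT80 stood at 0.824 to 1.86 CPM in the 4 SOX2-negative libraries, 0 to 0.413 CPM in the 4 SOX2-positive libraries and 0.254 and 0.476 CPM in the controls, so it passed the filter through the SOX2-negative libraries, and its difference is given without a test. KRT10, a type I keratin of differentiated epidermis, had 16.8 ± 6.9 and 9.45 ± 0.74 CPM (0.78 ± 0.21 SE, adjusted p = 0.023, edgeR), a call that was lost when any of 6 of the 8 compared libraries was left out (adjusted p up to 0.093). KRT15 did not pass (3.33 ± 1.44 SE, adjusted p = 0.13, edgeR).

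Neurofilament genes were lower in the SOX2-negative than in the SOX2-positive cells. Of 10 tested genes for other filaments, 5 were lower and 1 higher in SOX2-negative than in SOX2-positive cells, with a median log2 fold change of -1.02 beside 0.01 over all symbols. In this comparison 24% of all symbols were called, 11.1% lower and 12.9% higher. The neurofilament gene NEFL stood at 5.69 ± 0.78 CPM in SOX2-negative and 18.5 ± 2.42 CPM in SOX2-positive cells. NEFM had 1.75 ± 1.52 and 15.9 ± 5.7 CPM and NEFH 3.57 ± 0.63 and 7.31 ± 1.16 CPM (SD, n = 4 each). Their log2 fold changes were -1.70, -3.26 and -1.04 (adjusted p = 4.7e-05, 0.0014 and 0.0076, edgeR). The controls had 8.21 ± 0.53 CPM of NEFL, 9.85 ± 1.35 CPM of NEFM and 4.65 ± 0.11 CPM of NEFH (SD, n = 2). In SOX2-negative cells against control NEFL and NEFH did not pass (-0.54 and -0.39, adjusted p = 0.084 and 0.35, edgeR). BFSP1, known as a beaded filament gene of the eye lens, was the gene that rose, at 15.2 ± 5.13 CPM in SOX2-negative, 3.98 ± 0.37 CPM in SOX2-positive and 1.01 ± 0.28 CPM in control libraries (SD, n = 4, 4 and 2; 1.91 ± 0.24 SE between the gates, adjusted p = 0.00022, edgeR).

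Against control the SOX2-negative cells had 2 of the 10 other filament genes higher, BFSP1 (log2 fold change 3.86 ± 0.36 SE, adjusted p = 3.5e-05, edgeR) and DES, the muscle filament desmin (3.29 ± 0.66 SE, adjusted p = 0.0046), and 2 lower, NEFM (-2.58 ± 0.59 SE, adjusted p = 0.01) and INA (-1.43 ± 0.27 SE, adjusted p = 0.0032), where 12.4% of all symbols were called higher and 10.1% lower. DES stood at only 3.38 ± 1.69 CPM in SOX2-negative and 0.328 ± 0.105 CPM in control libraries, and its call was lost without control repeat 1 (adjusted p = 0.06). The calls of NEFM and INA were lost without control repeat 2 (0.073 and 0.06). In SOX2-positive cells against control BFSP1 (1.95 ± 0.34 SE), SYNM (1.58 ± 0.35 SE) and NEFL (1.16 ± 0.21 SE) were higher (adjusted p = 0.0057, 0.021 and 0.0078, edgeR), beside 4.65% of all symbols, and each of these calls was lost when either control was left out, that of SYNM also without repeat 1 at 100 ng/ml (0.063) or repeat 2 at 1000 ng/ml (0.052).

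Desmosomes and plakins anchor the filaments to membranes and to other filaments. Of 16 tested genes of this kind, 6 were higher and 2 lower in SOX2-negative than in SOX2-positive cells, with a median log2 fold change of 0.22, beside 12.9% of all symbols higher, 11.1% lower and a median of 0.01. The plakophilin gene PKP2 stood at 113 ± 18 CPM in SOX2-negative, 22.4 ± 2.94 CPM in SOX2-positive and 40.9 ± 2.25 CPM in control libraries (2.33 ± 0.17 SE between the gates, adjusted p = 6.2e-06, edgeR), and PERP, a membrane protein of desmosomes, at 246 ± 50.4, 89.6 ± 17.6 and 117 ± 25.1 CPM (1.44 ± 0.18 SE, adjusted p = 0.00019, edgeR). PKP1 was also higher, by 5.81 ± 1.16 on the log2 scale (SE), at low levels of 2.99 ± 1.45 CPM in SOX2-negative and 0.192 ± 0.385 CPM in SOX2-positive cells (SD, n = 4 each; adjusted p = 0.0053, edgeR), with counts in 1 of the 4 SOX2-positive libraries. DSC3, a desmosomal cadherin, and the plakin EPPK1 were lower (-1.97 ± 0.42 and -0.74 ± 0.20 SE, adjusted p = 0.0065 and 0.021, edgeR), the second only while repeat 1 of the SOX2-negative cells at 1000 ng/ml and repeat 2 of the SOX2-positive cells at each dose were kept. The core genes DSP (0.35 ± 0.20 SE, adjusted p = 0.25) and DSG2 (-0.05 ± 0.23 SE, adjusted p = 0.9) did not pass, by edgeR.

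Against control 4 of these 16 genes were higher and 2 lower in SOX2-negative cells, beside 12.4% and 10.1% of all symbols. PKP2 (log2 fold change 1.46 ± 0.21 SE) and PLEC, which encodes plectin and ranged over 673 to 915 CPM in SOX2-negative libraries, against 281 and 370 CPM in the controls (1.27 ± 0.19 SE), both had an adjusted p of 7e-04 by edgeR. The calls of PKP1, DSC3 and EPPK1 (4.28 ± 1.24, -1.56 ± 0.48 and -0.95 ± 0.23 SE) were each lost without either control. That of PKP1 was also lost without either SOX2-negative library at 1000 ng/ml, and that of DSC3 without repeat 1 at 1000 ng/ml or repeat 2 at 100 ng/ml of these cells. DSC3 also did not pass when only the compared groups were fitted (adjusted p = 0.099, edgeR). In SOX2-positive cells 1 of the 16 was called against control, beside 7.81% of all symbols. This was PKP2, lower by -0.87 ± 0.20 on the log2 scale (SE, adjusted p = 0.022, edgeR), and not without either control (0.13 and 0.24) or without repeat 1 at 100 or 1000 ng/ml (0.094 and 0.082).

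Lamins are tethered to the envelope and the cytoskeleton by partners of which 13 were tested. Between the gates 3 were higher and 1 lower in SOX2-negative cells, with a median of 0.22 beside 0.01 over all symbols, of which 12.9% were called higher and 11.1% lower. SUN2, which spans the inner membrane, stood at 58.6 ± 11.5 CPM in SOX2-negative, 25.7 ± 3.54 CPM in SOX2-positive and 17.7 ± 2.11 CPM in control libraries (1.19 ± 0.18 SE between the gates, adjusted p = 0.00079; 1.72 ± 0.24 SE against control, adjusted p = 0.00049, edgeR). SYNE2, a nesprin that links the nucleus to actin, had 73.1 ± 17.3, 155 ± 15.1 and 173 ± 29 CPM in the same order and fell in both comparisons (-1.09 ± 0.18 and -1.25 ± 0.21 SE, adjusted p = 0.0013 and 0.0016, edgeR).

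SYNE3, a nesprin tied to keratin filaments through plectin, was higher between the gates by 2.94 ± 0.74 on the log2 scale, at low levels of 3.95 ± 2.23 CPM in SOX2-negative and 0.503 ± 0.329 CPM in SOX2-positive cells (SE, adjusted p = 0.015, edgeR; SD, n = 4 each), and TOR1A, an ATPase of the envelope, by 0.56 ± 0.15 (adjusted p = 0.023). The call of SYNE3 was lost without repeat 1 of the SOX2-negative cells at 1000 ng/ml or repeat 2 of the SOX2-positive cells at either dose (adjusted p up to 0.063), and that of TOR1A without any SOX2-positive library or repeat 1 of the SOX2-negative cells at 1000 ng/ml (up to 0.088). EMD, which encodes emerin, did not pass between the gates (-0.59 ± 0.22 SE, adjusted p = 0.073, edgeR) and was lower against control (-0.96 ± 0.26 SE, adjusted p = 0.021), a call lost without either control or repeat 2 of the SOX2-negative cells at 1000 ng/ml. The lamin B receptor gene LBR had a log2 fold change of -0.20 ± 0.17 between the gates (SE, adjusted p = 0.43, edgeR).

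None of the 6 genes that process prelamin A or B-type lamins passed between the gates by edgeR, where ZMPSTE24, the protease of prelamin A, had 0.43 ± 0.16 (SE, adjusted p = 0.079) and RCE1 0.59 ± 0.20 (adjusted p = 0.056). Against control ICMT, the methyltransferase of the processed end, was lower in SOX2-negative cells, at 167 ± 10.8 against 257 ± 28.2 CPM (SD, n = 4 and 2). Its log2 fold change was -0.62 ± 0.16 (SE, adjusted p = 0.017, edgeR). This call was lost without either control and when only the compared groups were fitted (adjusted p = 0.063, edgeR).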

How the data were processed

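RNA was measured in 12 libraries of poly-A selected, paired-end reads, per the labels' protocols. The authors deposited 1 table of estimated counts, 1 column per library, without scaling between libraries. Salmon and the build GRCh38 stand in the submitters' processing notes; the Salmon version, annotation release and strand setting are not given in the sources used here. Totals were 16474856 to 28079048 estimated counts, and intervals cover counting error only.

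Identifiers sharing a symbol were summed (37951 identifiers, 35940 symbols) and rounded to whole numbers. The test was edgeR 4.0.16 under R 4.3.3: TMM scaling, filterByExpr by group (minimum count 10, minimum total 15), glmQLFit and glmQLFTest, two-sided, Benjamini-Hochberg adjustment over 17047 symbols, threshold 0.05. All 12 libraries entered 1 model of 7 group means with 5 residual degrees of freedom; contrasts used the doses 100 and 1000 ng/ml. Ratios were tested by exact permutation (scipy 1.17.1). GENCODE 29 gave coordinates, transcript lengths and sequences. In simulated data for the comparison of the gates (16541 genes), 57% of 2-fold and 92% of 4-fold changes were called, out of 100 genes each. Also called were 16 unchanged genes.

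Groups come from the sample titles. The pairing of repeats comes from the series description; the correlation of same-numbered libraries' deviations from their group mean was -0.06 to 0.22 in 10 pairs of groups. Replicates differed by more than sampling noise (chi-square per degree of freedom 21.7 to 134). Alternatives were DESeq2 1.42.0, RLE scaling, no filter, identifiers apart, only the compared groups, the repeat as a block, 300 ng/ml included, each library left out, and keratins summed with pseudogenes, the last chosen after seeing the data.

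The members and lists were chosen with earlier results of these data known. Named are all 8 members, the 3 symbols nearest to each by root mean square difference of centred log2 CPM (prior count 2, mean of at least 10 CPM), and up to 3 called genes per direction, list and comparison. Other list genes named, which include KRT15, DSP, DSG2, LBR, ZMPSTE24 and RCE1, were chosen after their values were seen. A listed endoderm marker was left out of its sum, and it and some sequence stretches are not reported here.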

Additional observations from a re-analysis of the deposited data

Results flagged for a closer look

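The log2 difference of KRT8 between the doses had opposite signs in the gates in each repeat, a pattern that did not pass the test. In the SOX2-negative cells the log2 difference between 1000 and 100 ng/ml of WNT3A was -0.13 in repeat 1 and -1.49 in repeat 2. In the SOX2-positive cells it was 0.37 and 0.24. The mean for SOX2-negative minus SOX2-positive cells was -1.12. KRT18 showed the same signs, at -0.15 and -1.52 in SOX2-negative and 0.41 and 0.25 in SOX2-positive cells, with a mean difference of -1.16 between the gates. The edgeR test of this difference gave -1.19 ± 0.44 for KRT8 and -1.20 ± 0.46 for KRT18 (SE), with unadjusted p of 0.021 and 0.025 and an adjusted p of 0.53 for each, so it did not pass. Without the SOX2-negative library of repeat 2 at 100 ng/ml it was -0.63 and -0.75 (adjusted p = 1), and without repeat 1 of that group -1.59 and -1.52 (adjusted p = 0.012 and 0.026). Each of these fits leaves 1 library in that arm, assumed to vary like the other groups, and in the second it is the library that stands apart.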

How the results depend on the processing

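For the 8 genes, 620 of 647 alternative values stayed on their side of the threshold, 23 passed it, 4 lost it, and no called value changed sign. Without the low-count filter, edgeR called 4 of the 8 genes for dose in the SOX2-negative cells and 3 in the difference between the gates, instead of 0, and DESeq2 called 1 for dose in these cells. Leaving out 1 library gave 0 to 4 and 0 to 3 calls, the highest without repeat 1 of the SOX2-negative cells at 100 ng/ml. Symbols called in all, 0 by edgeR, were 5, 432 and 19 by DESeq2 for dose in SOX2-positive, dose in SOX2-negative cells and their difference, and 107, 1551 and 308 without the filter. Between the gates, leaving out 1 library gave 2638 to 6835 calls over all symbols, beside 4085, the lowest without repeat 2 of the SOX2-positive cells at 100 ng/ml and the highest without repeat 1 of the SOX2-negative cells at that dose. With no count added to ratios, KRT7/KRT8 lost the library at 0, and the adjusted p of KRT8/KRT18 and LMNA/LMNB1 moved only through the adjustment. The differences were then 0.46 for KRT8/KRT18, -9.98 for KRT7/KRT8 and 1.07 for LMNA/LMNB1 (adjusted p = 0.0571, 0.0762 and 0.0571, exact permutation tests). As pairs within dose and repeat (the replicate block), they were 0.46, -10.32 and 1.07 (adjusted p = 0.167). Without 1 library they ranged from 0.42 to 0.49, from -10.83 to -9.75 and from 0.75 to 1.26 (adjusted p = 0.0762). Neither design can reach 0.05 after adjustment. Apart from VIM, the replicate block changed no call of the 8 genes. Summing keratins with their pseudogenes, chosen after seeing the data, changed none. KRT7 is limited by its 0 to 9 counts per SOX2-negative library.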
